A study of Mus musculus with 10 samples.

Results

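The *Akr1c* genes encode aldo-keto reductases, soluble enzymes that use NADPH or NADH to reduce a keto group of steroids, prostaglandins and other carbonyl compounds to an alcohol, or to run the step backwards. In this way they switch steroid hormones between active and inactive forms next to the receptor. In the mouse most of them sit side by side on chromosome 13, and they are best known from liver, kidney, ovary and adrenal gland. All members of the family fold into a barrel whose active site holds a conserved set of 4 residues, an aspartate, a tyrosine, a lysine and a histidine.

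The 9 genes described here (*Akr1c6*, *Akr1c12*, *Akr1c13*, *Akr1c14*, *Akr1c18*, *Akr1c19*, *Akr1c20*, *Akr1c21* and *Akr1cl*) were listed by name and selected on earlier results of these data from the gene and splicing tables. Which of those values led to the list is not recorded, so levels and exon inclusion alike are given as a description. All 9 were found among the 35214 genes of the authors' gene table. Only 4 of them (*Akr1c12*, *Akr1c13*, *Akr1c14* and *Akr1c19*) had entries among the splicing results, with 28 of the 167895 splicing events. The data are RNAseq libraries from islets of Langerhans of male mice, 5 of the strain NZO (NZO/HiBomDife), which is obese and prone to diabetes, and 5 of B6-ob/ob (C57BL/6J.V-Lepob/ob), which is obese for lack of leptin and is the diabetes-resistant strain of the study. Mice of both strains ate a carbohydrate-free high-fat diet until 18 weeks of age and were then given carbohydrates for 2 days. Since neither group was sampled before the carbohydrates, a difference between NZO and B6-ob/ob islets cannot be told apart from a lasting difference between the strains, including the leptin mutation that only one of them carries.

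The deposited data give 1 pooled inclusion value per strain and 1 mean per gene over all 10 libraries. The tables used here hold no value per mouse, so no spread, no error and no test between strains can be given, and the read depth behind each value is unknown. Differences are described by their size and by their place among all events of the same kind. The labels name pancreas as the source and the study's methods name isolated islets. The 9 beta cell markers started at a mean normalized count of 4777, and the hormones of the other islet cells were high too (*Gcg* 240204, *Ppy* 68470 and *Sst* 24410). The 9 acinar markers ranged from 0.087 to 402 and summed to 1075, and the 4 endothelial markers ranged from 1322 to 7678. The 4 markers of steroid-producing cells ranged from 0 to 48.7, with *Hsd3b1* at 0. Of the hepatocyte markers, *Alb* had 22.1 and *Apoa2* 121, while *Ttr*, with 99488, is also an alpha cell gene. The 5 ductal markers ranged from 13.3 to 17721, the latter for *Spp1*. The 5 leukocyte markers ranged from 11.7 to 190, and the 5 stellate and fibroblast markers from 540 to 1563. In whole islets, fewer cells of a type and less RNA per cell cannot be told apart, and whether these cells contributed to the values below was not tested.

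The question put to the splicing table was whether islets of the 2 strains put together the exons of *Akr1c* transcripts in the same way. The pooled values of the strains lay far apart in *Akr1c12* alone. By these values, most *Akr1c12* transcripts in NZO islets lacked exon 2 and most lacked exon 6, whereas in B6-ob/ob islets nearly all held both. Exon 2 has the same reference sequence in *Akr1c13*, so which copy its reads came from is uncertain, as described below. The other 5 tested exons of *Akr1c12*, and all 21 tested exons of *Akr1c13*, *Akr1c14* and *Akr1c19*, were present in over 0.9 of the transcripts in both strains. The measure is PSI, the proportion of transcripts spliced to include the exon, between 0 and 1, and ∆PSI is the PSI of NZO minus the PSI of B6-ob/ob islets.

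The PSI of *Akr1c12* exon 2 was 0.117 in NZO islets and 0.998 in B6-ob/ob islets, a ∆PSI of -0.881. Expressed as skipping, with PSI taken as the share of transcripts, 88.3% lacked the exon in NZO islets, against 0.204% in B6-ob/ob islets. The PSI of exon 6 was 0.215 in NZO islets and 0.998 in B6-ob/ob islets, a ∆PSI of -0.784. Thus 78.5% of the transcripts lacked exon 6 in NZO islets, against 0.193% in B6-ob/ob islets. These were the only members' events whose absolute ∆PSI exceeded 0.1, the limit used here to call an event shifted. Their count was 2 of 28, beside 8.73% of all 167895 events. All 28 are cassette exons, exons that can be left out as a whole, and among the 110932 cassette exons tested, 1.48% passed the limit in either direction and 0.993% were lower in NZO islets. As the genes were chosen with these values known, the count of members was not read against those shares.

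**Figure D1:**
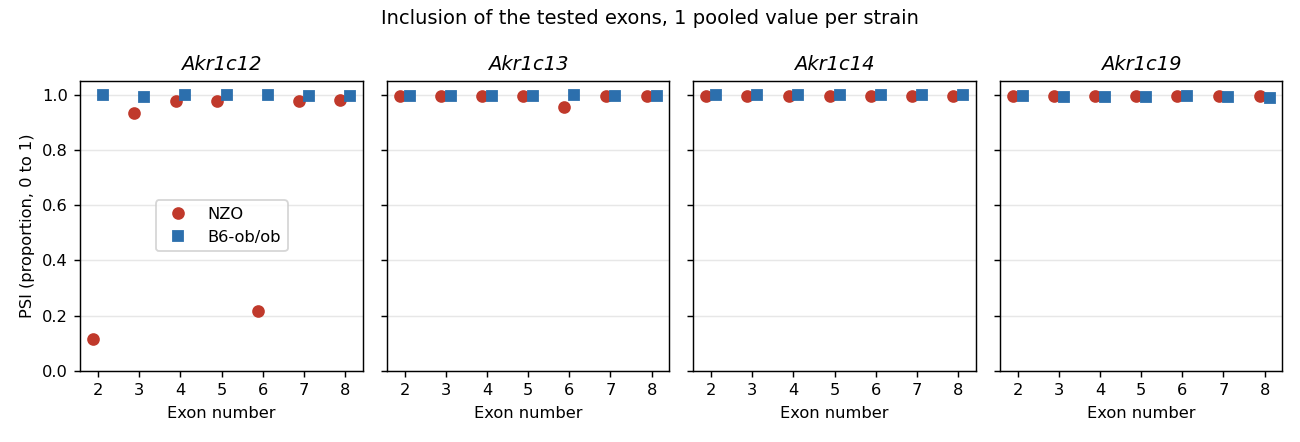
PSI of exons 2 to 8 (vertical axis, proportion from 0 to 1) of the 4 *Akr1c* genes with splicing events, as 1 pooled value for NZO (circles) and 1 for B6-ob/ob islets (squares), without error since the tables hold no values per mouse. Exons 2 and 6 of *Akr1c12* stand at 0.117 and 0.215 in NZO islets, while the other points lie between 0.935 and 0.999.

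The exons between and after these 2 were little changed. In *Akr1c12*, exon 3 had a PSI of 0.935 in NZO islets and 0.993 in B6-ob/ob, which made its ∆PSI of -0.0579 the largest among the members' exons inside the limit. Exon 4 stood at 0.977 in NZO islets and 0.998 in B6-ob/ob, and exon 5 at 0.978 in NZO islets and 0.998 in B6-ob/ob. The low value of exon 6 therefore followed 3 exons that NZO islets kept nearly always. After it, exon 7 stood at 0.978 in NZO islets and 0.997 in B6-ob/ob, and exon 8 at 0.982 in NZO islets and 0.996 in B6-ob/ob. All 7 tested exons of *Akr1c12* were thus lower in NZO islets, 2 of them by most of the scale and 5 with a ∆PSI between -0.0579 and -0.0149. A lower PSI in NZO islets was also the commoner direction in the whole table, where it held for 72% of cassette exons.

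Among all cassette exons, ordered from the most negative ∆PSI, *Akr1c12* exon 2 came in place 3 and exon 6 in place 7. Only 39 cassette exons, in 35 genes, were lower in NZO islets by over 0.5, and 4 of these genes held at least 2 such exons. *Akr1c12* was the 1 gene of the 4 in which a tested exon with an absolute ∆PSI of at most 0.1 lay between the shifted ones. As *Akr1c12* was chosen with these values known, its place in these counts is a description only. Both exons were close to constitutive in B6-ob/ob islets. Of the 47561 cassette exons with a PSI of at least 0.99 in B6-ob/ob islets, 4 had a PSI under 0.5 in NZO islets, namely the 2 of *Akr1c12*, 1 of *Abcc8*, which encodes the sulfonylurea receptor of the beta cell potassium channel, and 1 of *Lipo3*. The bounds of this count were chosen after the values were seen. The median absolute ∆PSI was 0.0036 for the members' exons and 0.00581 for all cassette exons.

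**Figure D2:**
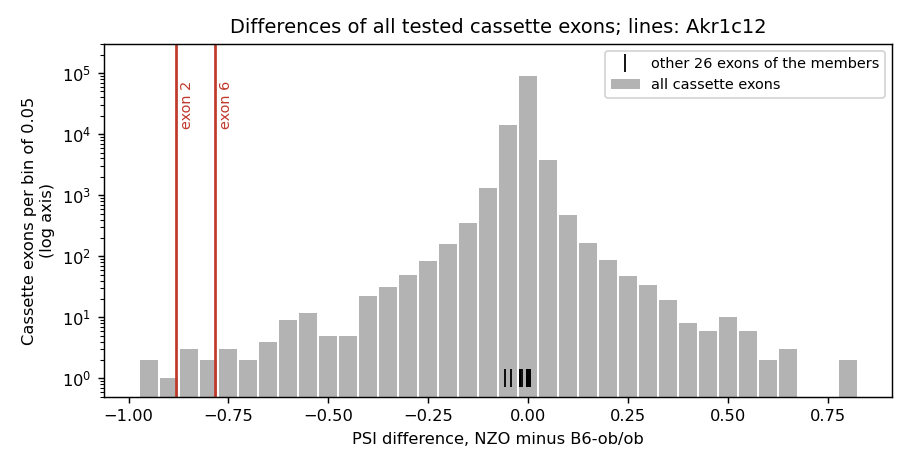
Number of cassette exons (vertical log axis) by ∆PSI, NZO minus B6-ob/ob (horizontal axis, bins of 0.05), over all 110932 tested cassette exons. The vertical lines mark *Akr1c12* exon 2 at -0.881 and exon 6 at -0.784, far down the left tail, and the short ticks mark the other 26 exons of the members, all between -0.0579 and 0.00541.

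*Akr1c12* (ENSMUSG00000021211) lies on the minus strand of chromosome 13, from 4268176 to 4279433 (GRCm38), and has a single annotated transcript of 1261 nt and 9 exons. Exon 2 is at chr13:4276229-4276396 and exon 6 at chr13:4272929-4273038, both coding along their whole length. No annotated transcript of the 4 genes leaves out any of the 28 tested exons. The joins 1 to 3 and 5 to 7, which skipping produces, are therefore absent from the annotation. The exon sequences are shown because the same exons of the neighbouring copy *Akr1c13* are nearly the same in sequence but had unlike PSI values. They were read from the GENCODE M21 transcripts (GRCm38), 5′ to 3′ along the gene's strand, with capitals at bases that differ between *Akr1c12* and *Akr1c13*. The *Akr1c13* exons are at chr13:4194034-4194201 and chr13:4197801-4197910 on the plus strand. Exon 2 is 168 nt long and is the same in both genes in these reference transcripts, so it is printed once, and exon 6 is 110 nt long with 4 differences.
*Akr1c12* and *Akr1c13* exon 2: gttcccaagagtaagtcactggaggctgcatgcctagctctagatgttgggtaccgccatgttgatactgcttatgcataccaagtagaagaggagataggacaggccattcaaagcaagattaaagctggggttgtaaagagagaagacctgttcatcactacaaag
*Akr1c12* exon 6: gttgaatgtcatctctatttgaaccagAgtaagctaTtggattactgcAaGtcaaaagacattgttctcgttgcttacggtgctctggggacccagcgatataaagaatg
*Akr1c13* exon 6: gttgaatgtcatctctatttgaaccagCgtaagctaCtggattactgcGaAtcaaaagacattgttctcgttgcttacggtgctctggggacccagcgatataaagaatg

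In *Akr1c13*, exon 2 had a PSI of 0.996 in NZO islets and 0.997 in B6-ob/ob. As this exon is identical in both reference genes, how its reads were divided between the copies is uncertain. Exon 6 of *Akr1c13* had a PSI of 0.955 in NZO islets and 0.998 in B6-ob/ob, a ∆PSI of -0.043, so that 4.55% of transcripts lacked it in NZO islets and 0.248% in B6-ob/ob. That was the largest difference among the 21 tested exons of *Akr1c13*, *Akr1c14* and *Akr1c19*, though inside the limit of 0.1, and it fell on the same exon number as in *Akr1c12*. The other 6 exons of *Akr1c13* differed by -0.00188 to 0.00015.

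The remaining genes kept all their tested exons. In *Akr1c14*, PSI ranged from 0.994 to 0.997 in NZO islets and from 0.998 to 0.999 in B6-ob/ob, and all 7 exons were slightly lower in NZO islets, with a ∆PSI of -0.0036 to -0.00205. In *Akr1c19*, PSI ranged from 0.994 to 0.997 in NZO islets and from 0.989 to 0.994 in B6-ob/ob, and all 7 exons were slightly higher in NZO islets, with a ∆PSI of 0.00299 to 0.00541. Over the 28 exons, 19 were lower and 9 higher in NZO islets. Without a spread between mice, differences of this size cannot be told from no difference. The 4 genes share their exon plan, since exons 2 to 8 measure 168, 117, 78, 123, 110, 166 and 83 nt in each of them. Exon 6 of *Akr1c14* differs from that of *Akr1c12* at 34 positions and exon 6 of *Akr1c19* at 21, in capitals here for comparison with the skipped exon. They lie at chr13:4080619-4080728 and chr13:4242552-4242661, both on the plus strand.
*Akr1c14* exon 6: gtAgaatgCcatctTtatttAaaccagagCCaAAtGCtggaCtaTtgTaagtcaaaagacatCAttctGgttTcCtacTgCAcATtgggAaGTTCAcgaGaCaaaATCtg
*Akr1c19* exon 6: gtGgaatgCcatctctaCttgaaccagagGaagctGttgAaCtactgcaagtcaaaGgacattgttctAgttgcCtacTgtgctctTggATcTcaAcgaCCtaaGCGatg

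Translating the annotated *Akr1c12* transcript with and without these exons gives the length of each possible product. The full transcript encodes 323 residues. Exon 2 encodes residues 29 to 84, and its length is a multiple of 3, so that leaving it out keeps the reading frame and gives 267 residues. Of the 4 catalytic residues, the aspartate at position 50, the tyrosine at position 55 and the lysine at position 84 are encoded in exon 2, and the histidine at position 117 in exon 3. All 4 are present at these positions in 8 of the 9 members, and in *Akr1cl*, which is 322 residues long, each is found 1 position earlier. Exon 6 encodes residues 191 to 227, and leaving it out shifts the frame. The first stop codon then follows 205 residues and lies 201 nt before the last exon join, whereas the normal stop lies in the last exon. A stop codon well before the last join is the known trigger of nonsense-mediated decay, and whether such transcripts were broken down was not measured.

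Leaving out both exons removes 278 nt and gives 149 residues before the first stop. The table gives each exon on its own and does not say which exons were skipped in the same molecule. If PSI is taken as the share of transcripts, the 2 values together bound that share. In NZO islets, 66.8% to 78.5% of *Akr1c12* transcripts would lack both exons, and at most 11.7% would hold both. The sequences formed at the 2 skipping joins are shown as the mark by which such molecules can be told from the annotated *Akr1c12* transcript, though not always from a like product of *Akr1c13*. Each has the last 20 bases of the upstream exon in lower case and the first 20 of the downstream exon in capitals.
*Akr1c12* exon 1 to exon 3: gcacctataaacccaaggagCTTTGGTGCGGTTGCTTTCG
*Akr1c12* exon 5 to exon 7: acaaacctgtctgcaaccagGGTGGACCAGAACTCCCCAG

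How far reads can be placed on 1 copy of the cluster bears on these values. The coding sequences of *Akr1c12* and *Akr1c13* are 96.2% identical (935 of 972 bases), and those of *Akr1c6* and *Akr1c20* 92.3%, while all other pairs of the 9 genes range from 71.1% to 78.7%. Of the 31-base words of annotated *Akr1c12* transcripts, 39.2% also occur in another gene, and of those of *Akr1c13* 33.7%. The 7 other members share 1.33% to 7.23% of their words, and *Akr1c14* shares most of its part with the pseudogene *Gm18857*. Values of *Akr1c12* and *Akr1c13* are therefore uncertain as to which copy a read came from.

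Within *Akr1c12*, the shared part is uneven. All of the 31-base words of exon 2 also occur in *Akr1c13*, as do all of its 75-base words. For the other exons, the share of 31-base words found in another gene is 0% in exon 3, 6.25% in exon 4, 50.5% in exon 5, 36.2% in exon 6, 25.7% in exon 7 and 84.9% in exon 8. With 75-base words, it is 0% in each of exons 3 to 7, exon 6 included, and 11.1% in exon 8. Short exons hold few such words, 4 in exon 4 and 9 in exon 8, of which 1 is shared. Of the 30 words that cross each join, all 30 are shared with *Akr1c13* at the joins 1 to 2, 4 to 5 and 6 to 7. At the join 5 to 6 it is 27, at 2 to 3 it is 9, at 7 to 8 it is 7, at 8 to 9 it is 5, and at 3 to 4 it is 0. Thus exons 5 and 6 are each flanked by 2 largely shared joins. If *Akr1c13* skipped exons 2 and 6, its join 1 to 3 would hold 9 of the 30 words of the *Akr1c12* join. Its join 5 to 7 would hold all 30. A read of 31 bases across the join 5 to 7 therefore cannot tell skipping of exon 6 in *Akr1c12* from that in *Akr1c13*. The study's methods name paired reads longer than 75 bases, whereas the joins were counted with 31-base words only. The reference sequence is that of C57BL/6J, and NZO bases that differ from it were not analysed here. The part of shared sequence, or of reads from the other copy, in the *Akr1c12* values was not tested.

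**Figure D3:**
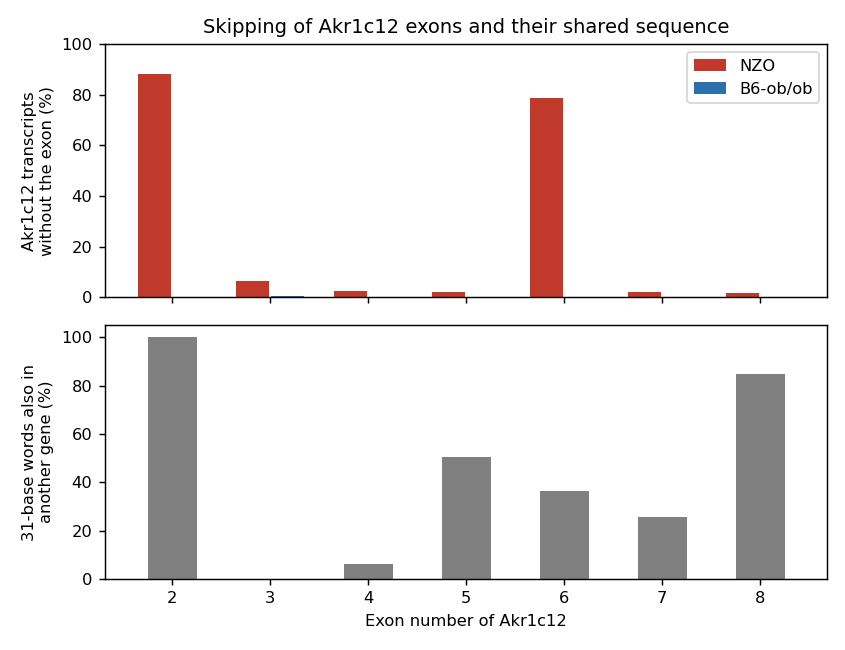
Upper panel, percentage of *Akr1c12* transcripts without each of exons 2 to 8 in NZO (left bars) and B6-ob/ob islets (right bars, mostly too low to see). Lower panel, percentage of the 31-base words of the same exon that also occur in another gene. Skipping was 88.3% and 78.5% in NZO islets at exons 2 and 6, where 100% and 36.2% of words are shared. The part of shared sequence in the skipping was not tested.

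The levels of the 9 genes were available only as the authors' mean normalized count over both strains. Of the summed mean of 5193, *Akr1c14* made up 51%, *Akr1c19* 18.2%, *Akr1c13* 17.4% and *Akr1c12* 13.2%. *Akr1c14*, a hydroxysteroid dehydrogenase that reduces the keto group of androgens such as dihydrotestosterone, had a mean of 2647, above 90.4% of the 22701 genes with a mean over 0. *Akr1c19* had a mean of 943 and was above 74.4% of those genes, *Akr1c13* had 904 and was above 73.7%, and *Akr1c12* had 684 and was above 68.8%. The median of these genes was 133, so that 4 members stood well above it. The other 5 had a mean under 10, and 3 of them under 1.

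The low members include enzymes best known from other organs. *Akr1c18*, which inactivates progesterone in the ovary at the end of pregnancy, had a mean normalized count of 0.523. *Akr1c6*, a hydroxysteroid dehydrogenase of the liver, had 0.464, and its close copy *Akr1c20* had 0.664. *Akr1c21*, a hydroxysteroid dehydrogenase of the kidney, had 8.07, and *Akr1cl* had 4.93. The splicing table used here has no event of these 5. As each mean covers both strains, no strain difference in level is given for any of the 9 genes.

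To compare genes, levels were divided by transcript length. Per kilobase of the longest annotated transcript, the mean normalized count was 832 for *Akr1c14*, 716 for *Akr1c13*, 542 for *Akr1c12* and 162 for *Akr1c19*. The place of *Akr1c19* depends on the length used, because its longest transcript has 5832 nt and its median transcript 1242 nt. With the median length it stood at 760 per kilobase, after *Akr1c14* at 1087 and *Akr1c13* at 968 and before *Akr1c12* at 542. The 5 low members lay between 0.332 and 6.19 per kilobase of the longest transcript. As each value is 1 pooled mean, it is not known which neighbours in this order differ beyond the spread between mice.

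**Figure D4:**
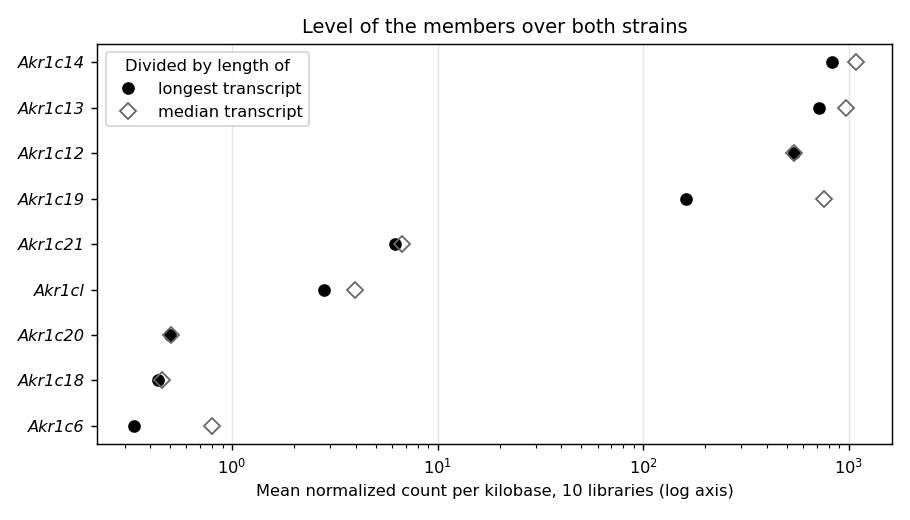
Mean normalized count per kilobase over all 10 libraries (horizontal log axis) for the 9 genes, divided by the longest (filled circles) or the median (open diamonds) annotated transcript length, each a single pooled value. With the longest transcript, 4 genes lie between 162 and 832 and the other 5 between 0.332 and 6.19, and only *Akr1c19* and *Akr1c6* move far with the length used.

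The chromosome 13 members span 538 kb, from 4049011 to 4586541 (GRCm38), with no other protein-coding gene between the first and the last of the 8. Only *Akr1cl* lies elsewhere, on chromosome 1 from 65012689 to 65032759. The 4 genes with a mean of at least 100 do not form an unbroken row, since *Akr1c18*, with 0.523, lies between *Akr1c14* and *Akr1c13*. *Akr1c12* and its near-copy *Akr1c13* are read from opposite strands, 62.6 kb apart, with *Akr1c19* between them. The 3 distal genes *Akr1c6*, *Akr1c20* and *Akr1c21* were all low, and the next protein-coding gene beyond them, *Akr1e1*, another aldo-keto reductase, had a mean of 531. On the other side of the cluster, beyond *Akr1c14*, lies *Ucn3*, which encodes urocortin-3, a peptide of mature beta cells, with a mean of 6879.

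**Figure D5:**
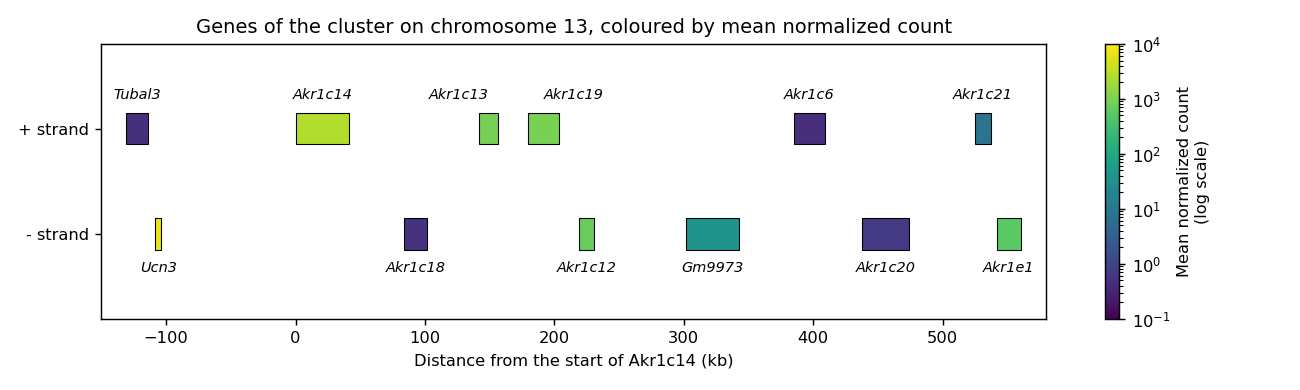
Position of the 8 chromosome 13 members and their neighbours, in kilobases from the start of *Akr1c14* (horizontal axis), on the plus (upper row) and minus strand (lower row). Boxes are drawn to scale and coloured by the mean normalized count over both strains on a log scale, with *Akr1c14* (2647), *Akr1c13* (904), *Akr1c19* (943) and *Akr1c12* (684) the high members.

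Related enzymes were set beside the cluster from 4 lists. Of 11 other aldo-keto reductases, 7 averaged 100 normalized counts or more. The top genes were *Akr1a1*, which reduces a broad range of aldehydes, with 13081, and *Akr1b3*, the aldose reductase of the polyol pathway, with 2448, followed by *Akr7a5* with 826 and the potassium channel subunit *Kcnab3* with 694. None of their 76 cassette exons had an absolute ∆PSI over 0.1, beside 1.48% of all cassette exons. Of their 113 events of all types, 8 did, beside 8.73% of all events. The largest were at transcription starts of *Kcnab2*, another potassium channel subunit, where a start segment of 125 nt had a PSI of 0.186 in NZO islets and 0.88 in B6-ob/ob and one of 19 nt had 0.812 in NZO islets and 0.12 in B6-ob/ob. Next came 2 segments at the transcript end of *Akr1b10*, with a PSI of 0.389 in NZO islets and 0.592 in B6-ob/ob and of 0.61 in NZO islets and 0.408 in B6-ob/ob.

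Of 31 other enzymes that act on steroid or retinoid carbonyls, 30 were in the table and 15 had a mean of at least 100. *Hsd17b12*, which acts in fatty acid elongation, was highest with 3688, followed by *Dhrs7* with 2618, *Hsd3b7* of bile acid synthesis with 1736 and the peroxisomal enzyme *Hsd17b4* with 1363. Of their 98 cassette exons, 1 (1.02%) passed the limit, beside 1.48% of all cassette exons. It was a 57 nt exon of *Hsd17b7*, an enzyme of cholesterol synthesis, with a PSI of 0.51 in NZO islets and 0.803 in B6-ob/ob. Of the 164 events of all types in these enzymes, 18 passed the limit, beside 8.73% of all events. They included a transcription start of *Srd5a1*, a steroid reductase, with 0.671 in NZO islets and 0.915 in B6-ob/ob. A transcript end of *Hsd3b2* had 0.315 in NZO islets and 0.0726 in B6-ob/ob, and the segment next to it 0.687 in NZO islets and 0.928 in B6-ob/ob.

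Among genes of prostaglandin synthesis and breakdown, 13 of 14 were in the table and 6 had a mean of at least 100, with *Ptges3* (3049), *Ptgr2* (2071), *Ptges* (730) and *Ptges2* (549) highest. None of their 47 cassette exons passed the limit, beside 1.48% of all cassette exons. Of their 71 events of all types, 7 did, beside 8.73% of all events. The 2 transcript end segments of *Ptges*, a prostaglandin E synthase, had a PSI of 0.418 in NZO islets and 0.736 in B6-ob/ob and of 0.582 in NZO islets and 0.264 in B6-ob/ob. A retained intron of *Ptgs1*, a cyclooxygenase, had 0.39 in NZO islets and 0.123 in B6-ob/ob, and one of its transcript end segments had 0.235 in NZO islets and 0.0459 in B6-ob/ob.

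The last list holds antioxidant genes driven by NRF2, together with *Nfe2l2*, which encodes NRF2, and *Keap1*, which encodes its regulator. These genes were included because human AKR1C genes are known NRF2 targets. All 19 were in the table and 17 had a mean of at least 100, with the ferritin chains *Ftl1* (22955) and *Fth1* (8734), *Txnrd1* (4429) and *Keap1* (3176) highest. None of their 121 cassette exons passed the limit, beside 1.48% of all cassette exons. Of their 178 events of all types, 8 did, beside 8.73% of all events. The counts of the 4 lists were not tested against these shares. *Srxn1*, which encodes sulfiredoxin, had a start segment of 215 nt whose PSI was 0.0774 in NZO islets and 0.876 in B6-ob/ob, and one of 8 nt with 0.925 in NZO islets and 0.134 in B6-ob/ob. A transcript end of *Me1* had 0.337 in NZO islets and 0.151 in B6-ob/ob, and a start segment of *Tkt* had 0.117 in NZO islets and 0.303 in B6-ob/ob. Among the cassette exons of the 4 lists, the *Hsd17b7* exon was thus the only one past the limit, and its ∆PSI of -0.293 was smaller in size than those of *Akr1c12* exons 2 and 6.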

How the data were processed

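RNA from islets of 5 NZO and 5 B6-ob/ob mice had been sequenced, 1 library per mouse, and samples were grouped by the strain in their labels. Salmon, DESeq2 and the build mm10 are named in the processing notes of the submitters, and Whippet, for splicing, in the study's methods. Versions are not given in the sources used here.

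For genes, the table that the authors deposited gives, as a signal, the count of each gene normalized by DESeq2 and averaged over all libraries. For splicing, the deposited table gives a PSI per strain, a fraction pooled over its mice. Both tables also hold the authors' comparisons (log2 fold change, adjusted p-value, ∆PSI and probability), and 2 sheets select significant rows by them. These columns were not used, so no strain difference in gene level is given. There were 0 columns of values per sample, so no model could be fitted and library depths are unknown.

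∆PSI was computed as NZO minus B6-ob/ob, and an event was called shifted over 0.1. Coordinates are GRCm38, to which mm10 corresponds. Exons, transcript lengths and sequences came from GENCODE M21, which holds 98.6% of the gene names of the table. Shared words (31 or 75 bases) were counted on the transcript strand over all annotated transcripts. Scripts ran in Python 3.11.15 with numpy 2.4.6, pandas 2.3.3, Biopython 1.88 and matplotlib 3.10.9 and were tested on simulated data.

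The 9 members and all lists were chosen with earlier results of these data known. Named genes were all members, every member event over the limit, and from each list up to 4 genes with the highest mean and up to 4 events with the largest ∆PSI. Any other gene was chosen after seeing its values. Alternatives were limits of 0.05 and 0.2, fewer event types, genes of a mean of at least 100, PSI of 0.1 to 0.9, 1 event per gene, the median transcript length, ranks among genes of at least 10 and 75-base words.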

Additional observations from a re-analysis of the deposited data

How the results depend on the processing

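The 2 shifted exons of *Akr1c12* kept their direction under each alternative that was run, and their values do not change with the settings, which alter only the limit and the events they are set beside. With a limit of 0.2, 2 of 28 member events passed, beside 3.65% of all events, and with 0.05 it was 3, beside 16.4%. With 4 event types the background was 2.54%, and with genes of a mean of at least 100 it was 7.99%. Among events with a mean PSI of 0.1 to 0.9, the members held 2, both over 0.1, beside 38.8% of 35254. With a PSI of 0.998 in B6-ob/ob islets, these 2 exons could enter that range only by a shift over 0.1. This setting therefore could not have come out otherwise. With 1 event per gene, 1 of 4 member genes passed, beside 44% of 13706 genes, since both exons belong to *Akr1c12*. Dividing by the median transcript length kept 4 members over 100 per kilobase and moved *Akr1c19* to 760, against 162 with the longest, and *Akr1c6* to 0.802, against 0.332. Ranks of the 4 genes did not move when genes under 10 were left out, and could not, since only genes ranked below them were removed. With words of 75 bases, the same 2 genes shared at least 10% of their words, *Akr1c12* 17.3% and *Akr1c13* 14.3%. No mouse could be left out, because the deposited values are pooled. No paired analysis was possible because there are no values per mouse and the strains share no replicate numbers. The unknown depth limits every small PSI difference and every level under 10.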
